A study of Mus musculus with 12 samples.

Results

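Of the 2091 genes in 3 deposited tables of mRNA ratios, 37 carry a symbol of the kind given to cytokines and their receptors. The families are interleukins, chemokines, tumour necrosis factor (TNF) family proteins, interferons and related cytokines, with their receptors. The 37 were chosen by their symbols (starting Il and a digit, Ccl, Ccr and a digit, Cxcl, Cxcr, Cx3c, Xcr, Tnf, Csf, Lif, Osm or Ifn) in the tables of day 2, 4 or 8. Il1rapl1 and Tnfaip6 fit by name only. The cells were AKR-2B, a mouse fibroblast line, grown as colonies in soft agar, where cells cannot attach to a dish. The groups were colonies given 25 ng/mL TGFβ and colonies given vehicle, both of the same unmodified line, recovered at 2, 4 and 8 days. Each of the 6 groups had 1 mRNA library, so the spread between replicates is unknown and nothing was tested. The line was not checked here against fibroblast markers by level, because the tables hold ratios only; none of 10 fibroblast markers was listed at any day.

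Cytokines are secreted signals that cells release to act on themselves and their neighbours. Chemokines are a family of them that direct cell movement through G protein-coupled receptors, interleukins mostly signal through JAK kinases or, for the IL-1 family, through NF-κB, and TNF receptors recruit TRAF adaptors or death-domain proteins. Fibroblasts are known to secrete chemokines and IL-6 on injury and to carry the IL-33 receptor in a soluble form.

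Each deposited value is 1 ratio per gene and day, with no levels. Nearly every ratio had the form of reads plus 0.5 over reads plus 0.5, with no scaling for library size, so each was traced to the smallest pair of whole read numbers that gives it. These are lower bounds, since any odd multiple of both terms (reads plus 0.5) gives the same ratio. A pair was found for all 2994 ratios; for 98.7% of them fewer than 0.01 pairs of that size or smaller would be expected to match by chance. The direction is not named in the tables and was read as TGFβ over vehicle from 31 direct TGFβ targets. Counting those with at least 20 reads in the larger library, day 2 had 2 above 1 and 0 below, day 4 had 9 above and 1 below, and day 8 had 4 above and 1 below. Itgb6, a target with under 20 reads, was below 1 at days 2 and 4. The smooth muscle gene Acta2, not among the 31, was also below 1 at these days (ratios 0.0560 and 0.0791). The reading thus rests on the targets chosen. Read the other way, every direction given for the cytokine genes would invert. The library totals behind these ratios were not used here, so a depth difference within a day stays in every value.

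Each table holds 499 genes above 1 and 499 below 1, and the rule thus used the ratio itself. The smallest listed ratio above 1 was 3 at day 2 and 5 at days 4 and 8, and the largest below 1 was 0.143, or 7-fold lower, at each day. A ratio of 3 needs no more than 1 read against 0, and 186 genes stood at it at day 2. Of the cytokine genes, 4 stood at the upper edge at day 2 (Il1r2, Il24, Tnfsf4 and Ifnb1), 2 at day 4 (Ccl6 and Il19) and 1 at day 8 (Il27ra). At the lower edge stood 2 at day 2, Cxcl17 and Il21r, and none at days 4 and 8. Genes just outside these edges are in no table, so a gene missing at a day is not shown to be unchanged there.

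Of the 37 cytokine genes, 18 were listed at day 2, 16 at day 4 and 18 at day 8. The day 2 table had 7 above and 11 below, where 50% of all listed genes were above. The day 4 table had 13 above and 3 below, and that of day 8 had 13 above and 5 below, again against 50% of all listed genes at each of these days. The tables were built on these ratios, so the counts describe what was listed and nothing is read from them. With at least 20 reads in the larger library, the day 2 table had 2 above and 5 below, that of day 4 had 7 above and 1 below, and that of day 8 had 6 above and 3 below. Of all listed genes with that many reads, 30.1%, 53.9% and 46.0% were above 1 at days 2, 4 and 8, so the day 2 split of the cytokine genes is close to that of the whole table.

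Many of the ratios rest on very few reads. At day 2, 7 of the 18 listed cytokine genes had at least 20 reads in the larger library, where 29.7% of all listed genes did. At day 4 it was 8 of 16, against 39.4%, and at day 8 it was 9 of 18, against 42.3%. In 9, 7 and 7 cases at days 2, 4 and 8 the smallest pair had 0 reads in 1 library, so that the size of the ratio depends on the added 0.5. Of all listed ratios, 66.8%, 57.2% and 56.6% were of this kind at days 2, 4 and 8.

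**Figure D1:**
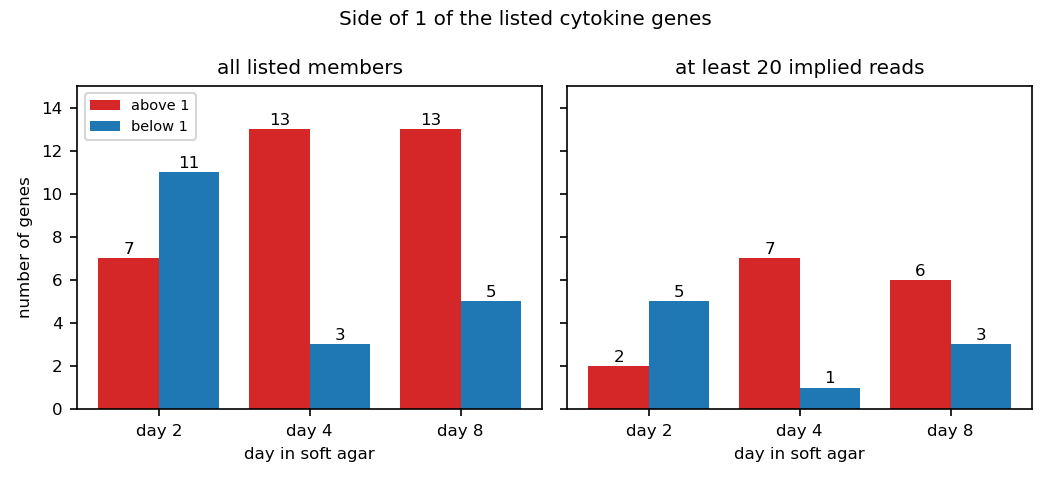
Bars give the number of cytokine genes listed above 1 (red) and below 1 (blue) at each day, for all listed members (left) and for those with at least 20 implied reads in the larger library (right). Above 1 stand 7, 13 and 13 genes in the left panel at days 2, 4 and 8, where 50% of all listed genes stood above, and 2, 7 and 6 in the right panel, where 30.1%, 53.9% and 46.0% did.

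**Figure D2:**
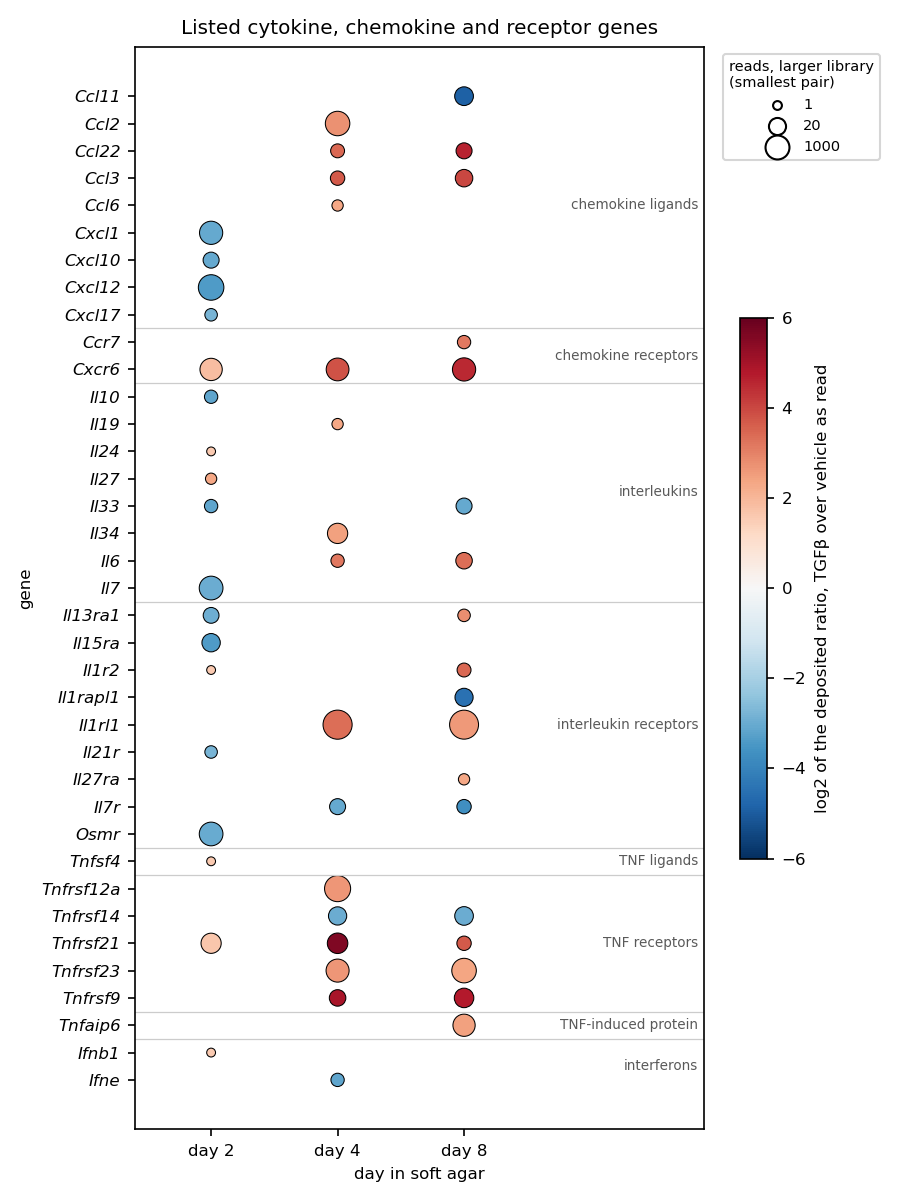
Each circle is a listed gene at a day, coloured by the log2 of the deposited ratio (red above 1, blue below) and sized by the reads of the larger library in the smallest pair; an empty place means that the gene was not listed. Cxcr6 and Tnfrsf21 are listed at all 3 days and always above 1.

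The 9 listed chemokine ligands included 3 with over 100 reads in the larger library, Cxcl12, Cxcl1 and Ccl2. The listed CXC ligands all lay below 1 and at day 2 only, while of the 5 listed CC ligands 4 lay above 1 at day 4, and at day 8 Ccl3 and Ccl22 lay above 1 and Ccl11 below. Of the chemokine ligand genes in the RefSeq annotation, 4 of 12 Cxcl genes and 5 of 25 Ccl genes were listed at any day, where 7.32% of all protein-coding genes were; which genes had reads at all is not known from the tables, so such shares were not tested.

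Cxcl12, the ligand of Cxcr4 that retains leukocytes and stem cells in tissue, had a ratio of 0.0945 at day 2 in the authors' deposited table. This ratio traces to at least 281 reads with TGFβ and 2979 with vehicle, 10.6-fold lower, with a 95% counting interval of 9.38-fold to 12.0-fold lower. Cxcl1, a neutrophil attractant, had a ratio of 0.120 in the authors' deposited table, from at least 74 reads with TGFβ and 618 with vehicle (8.30-fold lower, 6.55 to 10.8). For both genes the counting interval lay well below 1, while the error between replicates is unknown. Cxcl10, an interferon-inducible ligand of Cxcr3, was 8.33-fold lower in the authors' deposited table on only 1 read with TGFβ against 12 with vehicle (1.78 to 513). Cxcl17, a mucosal chemokine, stood at the edge of the table with 0 reads with TGFβ and 3 with vehicle.

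The promoters of Cxcl1 and Cxcl10 are shown because they hold motifs of factors that act downstream of cytokines. The sequences are the 250 bases upstream of the RefSeq start in build GRCm38.p6, at chr5:90890995-90891244 on the plus strand for Cxcl1 and at chr5:92348890-92349139 on the minus strand for Cxcl10. Capitals mark matches, on either strand, to GGGNNTTTC (an NF-κB-like site), TGANTCA (AP-1) or GAAANNGAA (an interferon-response-like element).
Cxcl1: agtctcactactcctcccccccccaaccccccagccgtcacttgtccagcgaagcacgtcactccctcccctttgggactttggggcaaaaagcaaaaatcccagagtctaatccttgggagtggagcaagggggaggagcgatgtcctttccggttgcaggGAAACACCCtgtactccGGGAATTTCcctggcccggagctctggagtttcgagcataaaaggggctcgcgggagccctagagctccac
Cxcl10: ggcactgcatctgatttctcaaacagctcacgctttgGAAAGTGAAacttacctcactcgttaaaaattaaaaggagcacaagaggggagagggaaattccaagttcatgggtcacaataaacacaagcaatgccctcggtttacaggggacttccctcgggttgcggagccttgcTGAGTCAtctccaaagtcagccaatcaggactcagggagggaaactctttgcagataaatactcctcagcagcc
The 2 NF-κB-like matches of Cxcl1 begin 88 and 71 bases before the start, and Cxcl10 has an AP-1 match at 74 and an interferon-response-like match at 213 bases.

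Promoter sequences were held for 26 of the 37 genes, with 30 promoters. The NF-κB-like motif lay in 3 of these 30 (Cxcl1, Il6 and Tnfrsf9) and in 3.72% of all 32851 promoters. AP-1 matches lay in 5 (Cxcl10, Il6, Il15ra, Tnfaip6 and Tnfrsf9) and in 6.75% of all, and interferon-response-like matches in 5 (Ccl3, Cxcl10, Il15ra, Il19 and Tnfrsf14) and in 7.13% of all. The palindrome GTCTAGAC, a SMAD-binding sequence, lay in 0 of the 30 and in 0.167% of all. Genes with an NF-κB-like match lay on both sides of 1: Cxcl1 below at day 2, and Il6 and Tnfrsf9 above at days 4 and 8. The string searched is 1 narrow form of the site. A promoter without a match, that of Cxcl10 included, is thus not shown to lack an NF-κB site.

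Among the CC ligands, Ccl2, which attracts monocytes through Ccr2, had a ratio of 6.60 at day 4 in the authors' deposited table. It traces to at least 1429 reads with TGFβ and 216 with vehicle (interval 5.73 to 7.67). It overlaps the annotated gene Gm17268 on the other strand. Ccl3, a macrophage inflammatory protein, had ratios of 13 at day 4 and 16.3 at day 8 in the authors' deposited table. Its smallest pairs were 6 reads with TGFβ against 0 with vehicle at day 4, at least 2-fold higher with 0 set to 3 counts (interval from 1.18 upward), and 24 against 1 at day 8 (interval 3.91 to 987). Ccl22, a ligand of Ccr4, stood at 11 on day 4 and 25 on day 8 in the authors' deposited table, from 5 reads against 0 and 12 against 0, the last at least 4-fold higher with 0 set to 3 counts. Its counting interval runs from 0.916 upward at day 4, which includes 1, and from 2.78 upward at day 8. Both ratios were listed above 1 at days 4 and 8, and both genes had at most 1 vehicle read in their smallest pairs. Ccl6, a mouse macrophage chemokine, stood at the day 4 edge with 2 reads against 0.

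Ccl11, the eosinophil attractant eotaxin, had the lowest ratio of all 37 genes, 0.0330 at day 8 in the authors' deposited table. It traces to at least 1 read with TGFβ and 45 with vehicle, and the counting interval of 7.68-fold to 1816-fold lower shows how little the single read fixes its size. Ccl11 lies 20.4 kb from Ccl2 on chromosome 11 (82057832 to 82062955 and 82035577 to 82037452, GRCm38.p6). The neighbours were thus listed on opposite sides of 1 and at different days.

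Of the chemokine receptors, 2 of 19 annotated genes (10.5%, against 7.32% of all protein-coding genes) were listed, both above 1. Cxcr6, the receptor of the membrane-bound chemokine Cxcl16, was listed at every day. The authors' deposited table gives it ratios of 3.58 on day 2, 14.3 on day 4 and 22.7 on day 8. The smallest reads were 345 with TGFβ and 96 with vehicle at day 2 (interval 2.86 to 4.55), 464 and 32 at day 4 (10.1 to 21.4), and 623 and 27 at day 8 (15.7 to 35.3). The interval of day 2 lies below those of days 4 and 8, which overlap each other. The difference between days was not tested, and the depth of the 6 libraries enters it. Cxcr6 (chromosome 9, 123806477 to 123811754) overlaps Fyco1 on the opposite strand. The library kit named in the labels keeps no strand, so reads of the 2 genes cannot be told apart by strand. Ccr7, the receptor that guides leukocytes to lymph nodes, was listed at day 8 alone with 4 reads against 0.

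**Figure D3:**
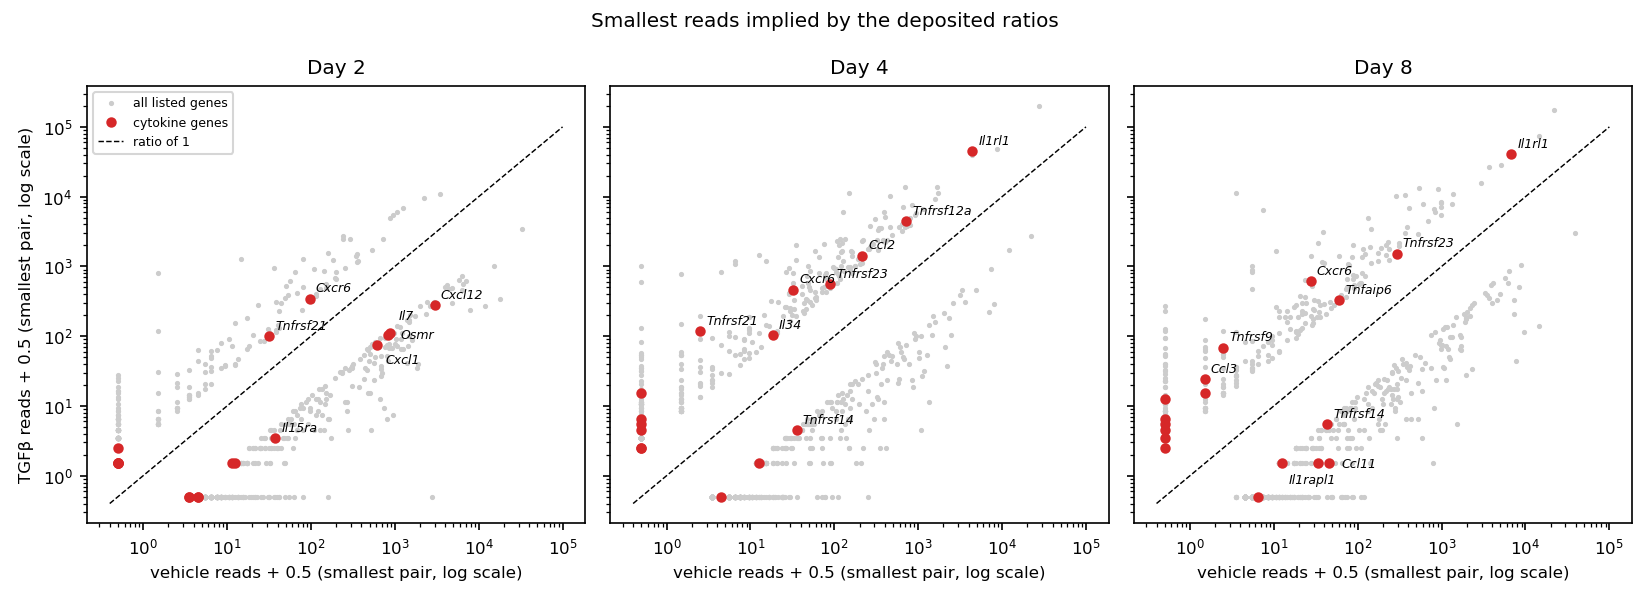
Each point is a listed gene, placed by the smallest vehicle reads (horizontal) and TGFβ reads (vertical) that its ratio allows, plus 0.5, on log axes, for days 2, 4 and 8; cytokine genes are red and named where the larger library has at least 20 reads. Il1rl1 stands far up the diagonal at days 4 and 8, and a column and a row of genes lie at 0 reads in 1 library.

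Interleukin genes were listed with few reads apart from Il7 and Il34. Il7, a growth factor of lymphocytes, had a ratio of 0.128 at day 2 in the authors' deposited table, from at least 112 reads with TGFβ and 876 with vehicle (7.79-fold lower, interval 6.42 to 9.61). Il34, which like Csf1 binds the receptor Csf1r, had a ratio of 5.59 at day 4 in the authors' deposited table, from at least 103 reads with TGFβ and 18 with vehicle (3.45 to 10). Il7 and Il34 overlap annotated antisense genes, whose reads could not be separated from theirs. Each was listed at 1 day only.

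Il6, the main ligand of gp130 signalling in inflamed tissue, had ratios of 9 at day 4 and 10.3 at day 8 in the authors' deposited table. These trace to 4 reads with TGFβ against 0 with vehicle and to 15 against 1 (interval 2.31 to 631). Its counting interval at day 4 runs from 0.660 upward and includes 1. Its promoter at chr5:30012864-30013113 (plus strand) is shown with the NF-κB-like match 44 bases and the AP-1 match 249 bases before the start in capitals.
Il6: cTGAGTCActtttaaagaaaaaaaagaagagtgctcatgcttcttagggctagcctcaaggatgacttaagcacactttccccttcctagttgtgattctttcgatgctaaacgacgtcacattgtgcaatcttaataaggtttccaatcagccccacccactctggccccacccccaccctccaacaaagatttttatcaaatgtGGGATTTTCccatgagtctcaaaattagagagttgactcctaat

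Il33, a nuclear alarmin of the IL-1 family, was below 1 at days 2 and 8. The authors' deposited table put it at 9-fold lower on day 2 and 8.33-fold lower on day 8. Its smallest pairs were 0 reads with TGFβ against 4 with vehicle and 1 against 12 (interval 1.78-fold to 513-fold lower at day 8). The IL-10 family genes Il24, Il19 and Il10 lie within 132 kb of each other on chromosome 1. Il24 was above 1 at day 2 with 1 read against 0, Il19 above 1 at day 4 with 2 against 0, and Il10 below 1 at day 2 with 0 against 4. Il27, a subunit of a cytokine of the IL-12 family, was above 1 at day 2 with 2 reads against 0. None of these 4 genes had a counting interval that left out 1.

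Il1rl1, which encodes the IL-33 receptor ST2, had far more reads behind it than any other member. Its ratio in the authors' deposited table was 10.4 on day 4 and 6.04 on day 8. The smallest reads were 45378 with TGFβ and 4374 with vehicle at day 4 (interval 10.1 to 10.7), and 40565 and 6715 at day 8 (5.89 to 6.20). In reads of the larger library, not corrected for gene length, it ranked 3 among the 998 listed genes at both days. For numbers this large the trace is less certain, with 0.098 and 0.023 pairs expected to match by chance. The gene (chromosome 1, 40404864 to 40465418) has 2 promoters in the RefSeq table, and a ratio per gene does not separate its membrane-bound and soluble forms. Its ligand gene Il33 lay on the other side of 1 at day 8, on 1 read with TGFβ against 12 with vehicle.

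Il1r2, the decoy receptor of IL-1, lies 280 kb from Il1rl1 and was above 1 at days 2 and 8. Its smallest pairs were 1 read against 0 and 5 against 0, and both intervals include 1. Osmr, the receptor subunit of oncostatin M that pairs with gp130, had a ratio of 0.124 at day 2 in the authors' deposited table. It traces to at least 104 reads with TGFβ and 840 with vehicle (8.04-fold lower, interval 6.58 to 10). Il15ra, which presents IL-15 to neighbouring cells, stood 10.7-fold lower in the authors' deposited table for day 2, on 3 reads with TGFβ and 37 with vehicle (3.91 to 62.5). Osmr, Il15ra, Il7, Cxcl1 and Cxcl12 are the 5 cytokine genes below 1 at day 2 with at least 20 reads. None of them was listed at day 4 or 8. Of all genes below 1 at day 2, with no read minimum, 37.9% were also below 1 at day 4 and 32.1% at day 8.

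Il7r, the receptor chain of IL-7, was below 1 at days 4 and 8. The authors' deposited table put it at 8.33-fold lower on day 4 and 13-fold lower on day 8. Its smallest pairs were 1 read with TGFβ against 12 with vehicle (interval 1.78-fold to 513-fold lower) and 0 against 6. Il13ra1, a chain of the receptor of IL-4 and IL-13, was the only member on both sides of 1. It had a ratio of 0.130 at day 2 and 7 at day 8 in the authors' deposited table, from 1 read with TGFβ against 11 with vehicle and from 3 against 0. Il1rapl1, which shares the fold of IL-1 receptors but works at synapses, stood 22.3-fold lower in the authors' deposited table for day 8, on 1 read with TGFβ and 33 with vehicle (5.52 to 1342). Il21r, a receptor of lymphocytes, was below 1 at day 2 with 0 reads against 3, and Il27ra, the receptor of IL-27, above 1 at day 8 with 2 against 0.

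Of 20 annotated TNF receptors with a Tnfrsf symbol, 5 were listed (25%, against 7.32% of all protein-coding genes). All 5 were in the day 4 table, 4 of them above 1, and 4 were in the day 8 table, 3 of them above 1, where 50% of all listed genes were above. With at least 20 reads, 3 were above and 1 below at day 4, against 53.9% of all such genes above, and 2 were above and 1 below in the day 8 table, against 46.0%. Tnfrsf21, the death receptor DR6, was above 1 at every day, with ratios of 3.16 on day 2, 47.8 on day 4 and 13 on day 8 in the authors' deposited table. The smallest reads were 99 with TGFβ and 31 with vehicle at day 2 (interval 2.11 to 4.95) and 119 and 2 at day 4 (16.1 to 497). At day 8 the smallest pair was 6 against 0, at least 2-fold higher with 0 set to 3 counts (interval from 1.18 upward), and the next pair that gives the same ratio is 19 against 1. The day 4 ratio is the largest of all 37 genes at any day, and it rests on 2 vehicle reads.

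Tnfrsf9, the costimulatory receptor 4-1BB best known on T cells, had ratios of 31 at day 4 and 27.4 at day 8 in the authors' deposited table. It traces to 15 reads with TGFβ against 0 with vehicle, at least 5-fold higher with 0 set to 3 counts (interval from 3.59 upward), and to 68 against 2 (interval 9.06 to 286). It overlaps Camta1 on the other strand. The second of its 2 RefSeq promoters, at chr4:150927749-150927998 on the plus strand, is shown because it holds an NF-κB-like match 43 bases and an AP-1 match 15 bases before the start, in capitals.
Tnfrsf9: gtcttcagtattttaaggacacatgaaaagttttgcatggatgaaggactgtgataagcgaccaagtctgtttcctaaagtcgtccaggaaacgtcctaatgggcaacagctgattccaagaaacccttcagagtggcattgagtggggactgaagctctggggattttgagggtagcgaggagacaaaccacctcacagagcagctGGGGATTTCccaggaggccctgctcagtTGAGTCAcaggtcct

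Tnfrsf23, a mouse decoy receptor of TRAIL, stood in the authors' deposited table at ratios of 6.28 on day 4 and 5.24 on day 8. The smallest reads were 555 with TGFβ and 88 with vehicle at day 4 (interval 5.03 to 7.99), and 1523 and 290 at day 8 (4.63 to 5.98). The 2 intervals overlap. Its close relatives Tnfrsf22 and Tnfrsf26 lie beside it on chromosome 7, so reads shared among them are uncertain. Tnfrsf23 also overlaps the antisense gene E230032D23Rik, whose reads could not be separated from its own. Tnfrsf12a, the receptor of TWEAK that is also called Fn14, had a ratio of 6.18 at day 4 in the authors' deposited table, from at least 4455 reads with TGFβ and 720 with vehicle (5.72 to 6.70).

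Tnfrsf14, the herpesvirus entry mediator HVEM, was the only listed gene with a Tnfrsf symbol below 1. The authors' deposited table put it at 7.89-fold lower on day 4 and 7.91-fold lower on day 8. Its smallest reads were 4 with TGFβ and 35 with vehicle (interval 3.13-fold to 33.9-fold lower), and 5 and 43 (3.41 to 27.8). Both ratios lie near the 7-fold edge of the tables. Tnfsf4, the ligand OX40L, was the 1 gene listed of 12 annotated with a Tnfsf symbol (8.33%, against 7.32% of all protein-coding genes). It stood at the day 2 edge with 1 read against 0. Tnfaip6 encodes TSG-6, a hyaluronan-binding protein named for its induction by TNF. Its ratio was 5.48 at day 8 in the authors' deposited table, from at least 331 reads with TGFβ and 60 with vehicle (4.18 to 7.39).

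Of 26 annotated interferon and interferon receptor genes, 2 were listed. Ifnb1, the main early type I interferon, was above 1 at day 2 with 1 read against 0, and Ifne, an interferon of epithelia, was below 1 at day 4 with 0 against 4. Both ratios have counting intervals that include 1. None of the 8 annotated Csf genes was listed, and of Lif, Lifr, Osm and Osmr only Osmr was. In all, 37 of the 219 protein-coding genes whose symbols fit the rule were listed at any day, or 16.9%, against 7.32% of all protein-coding genes. The 7.32% leaves out any protein-coding genes listed under older symbols, so it is somewhat low, while all 37 members matched as given. The share of the cytokine genes was not tested either.

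Between days, 12 of the 37 genes (32.4%) were listed at 2 or more days on 1 side of 1, where 29.9% of all listed genes were. Of these, 9 were above 1 (Ccl3, Ccl22, Cxcr6, Il6, Il1r2, Il1rl1, Tnfrsf9, Tnfrsf21 and Tnfrsf23) and 3 below (Il33, Il7r and Tnfrsf14). The share is close to that of all listed genes. On both sides stood 1 of 37, against 2.30% of all listed genes, and 24 were listed at 1 day. Between days 4 and 8, 8 of the 13 genes above 1 at each of these days were shared (61.5%), against 46.1% of all genes listed above 1. Days 2 and 4 shared 2 genes above 1, Cxcr6 and Tnfrsf21, which is 28.6% of the day 2 genes and 15.4% of the day 4 genes, against 28.1% of all genes listed above 1. Days 2 and 8 shared 3, the same pair and Il1r2, or 42.9% of the day 2 genes and 23.1% of the day 8 genes, against 26.7% of all. Days 2 and 4 shared 0 genes below 1, where 37.9% of all genes listed below 1 at each of these days were shared. With at least 20 reads at each day counted, 5 genes recurred on 1 side: Cxcr6, Tnfrsf21, Il1rl1 and Tnfrsf23 above 1 and Tnfrsf14 below, of 18 (27.8%), where 46.4% of 662 listed genes did.

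**Figure D4:**
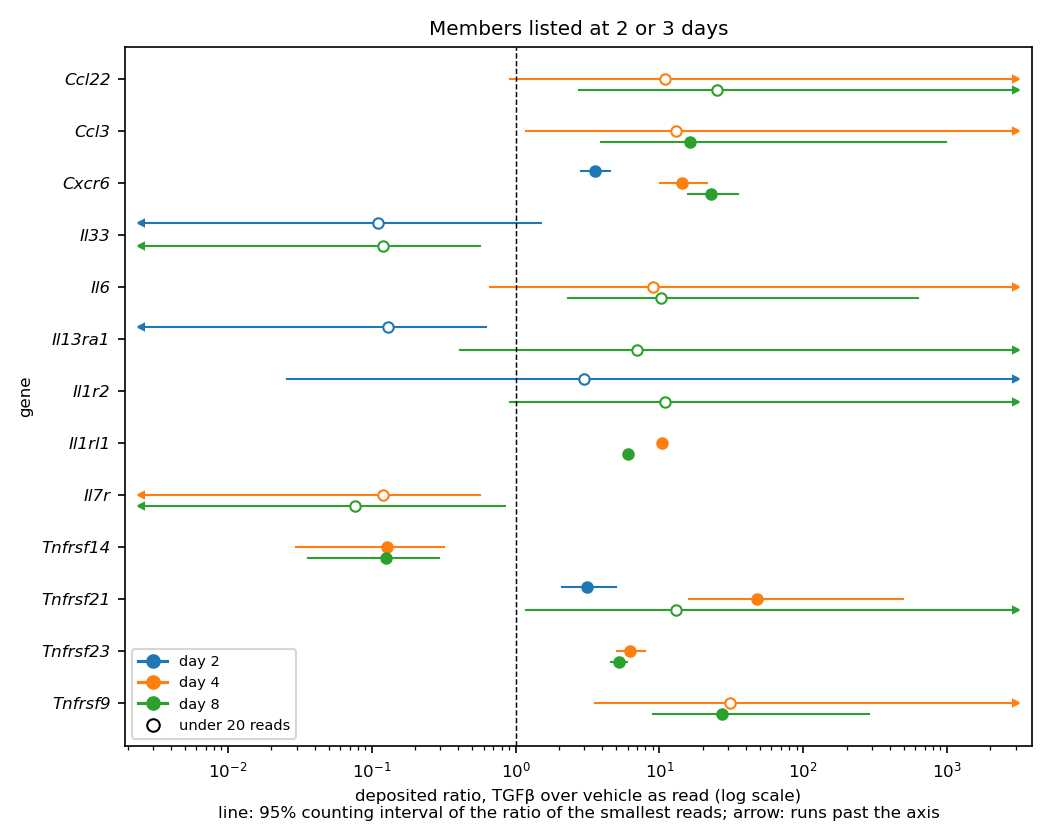
Points give the deposited ratio of each gene listed at 2 or 3 days on a log axis, lines the 95% counting interval of the ratio of its smallest reads, and open points a larger library under 20 reads. The intervals of Ccl3, Cxcr6, Il1rl1, Il7r, Tnfrsf9, Tnfrsf14, Tnfrsf21 and Tnfrsf23 keep clear of 1 at each day they are listed, and Il13ra1 lies below 1 at day 2 and above 1 at day 8.

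For 3 cytokines both the ligand and a receptor gene were among the 37, and only Il33 and Il1rl1 shared a table. Il33 was below 1 and its receptor gene Il1rl1 above 1 at day 8. Il7 was below 1 at day 2 and Il7r below 1 at days 4 and 8. Il27 was above 1 at day 2 and Il27ra above 1 at day 8, each with 2 reads against 0. Il27 overlaps Apobr and Il27ra overlaps Palm3, each on the opposite strand, so their reads could not be told apart by strand.

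Genes of the signalling steps after these receptors were counted in the same tables, where 7.32% of all protein-coding genes were listed. At each day 50% of all listed genes were above 1. Of 37 NF-κB and innate signalling genes only Tlr1 was listed (day 8, 0 reads with TGFβ against 10 with vehicle). Innate signalling genes outside the 37 were not counted. Among them, Nod2 had 2 reads with TGFβ against 0 at day 2, and Nod1 had 0 against 4 at day 4. Of 41 JAK-STAT genes only Cish was listed. Cish, a feedback inhibitor of cytokine receptors that use STAT5, stood 8.39-fold lower in the authors' deposited table for day 8, from at least 24 reads with TGFβ and 205 with vehicle. Of 34 inflammatory response genes, 7 were listed, with 2 above and 1 below in the day 2 table, 4 above and 0 below in the day 4 table, and 0 above and 1 below in the day 8 table. The list shares members, Plaur among them, with the direct TGFβ targets from which the direction was read.

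Of 40 related cytokine and receptor genes with other symbols, 10 were listed, where 7.32% of all protein-coding genes were. The day 2 table had 1 above and 3 below, that of day 4 had 2 above and 2 below, and that of day 8 had 2 above and 4 below. At each day 50% of all listed genes were above 1. Fas, the death receptor of the TNF receptor family, was below 1 at every day. The authors' deposited table put it at 12.6-fold lower on day 2, 27.9-fold on day 4 and 35.6-fold on day 8. Its smallest reads were 2 with TGFβ and 31 with vehicle, 8 and 237, and 16 and 587. Relt, a further TNF receptor family member, had ratios of 5.96 at day 4 and 5.37 at day 8 in the authors' deposited table, from 360 reads with TGFβ and 60 with vehicle and from 319 and 59. Flt3l, a growth factor of dendritic cells, stood in the authors' deposited table at 20.1-fold lower on day 4 and 14.3-fold lower on day 8. Its smallest reads were 3 with TGFβ and 70 with vehicle, and 1 and 21. Kitl, the ligand of the receptor Kit, stood 13.9-fold lower in the authors' deposited table for day 8, from at least 325 reads with TGFβ and 4521 with vehicle. Spp1 had the most reads of this list, with a ratio of 5.06 at day 8 in the authors' deposited table. It traces to at least 73890 reads with TGFβ and 14606 with vehicle, and for numbers this large the trace is less certain.

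Many of the listed cytokine genes are best known from leukocytes, and markers of other cells were counted in the same tables. Of all protein-coding genes, 7.32% were listed at any day, and 50% of all listed genes were above 1 at each day. Of 15 leukocyte markers 1 was listed, a share close to that of all protein-coding genes. It was Itgam, with 0 reads with TGFβ against 4 with vehicle at day 4 and 0 against 7 at day 8. Leukocyte genes outside these 15 lay on both sides of 1. At day 2, Nckap1l had 117 reads with TGFβ against 1 with vehicle, and Icos had 0 against 18. Endothelial markers were listed for 4 of 5 genes, all above 1: 2 at day 2, 2 at day 4 and 3 at day 8. Cdh5 led with 15, 31 and 32 reads with TGFβ against 0 with vehicle at days 2, 4 and 8. The others had few reads, and their counting intervals include 1. Tek had 1 read against 0 at day 2 and 5 against 0 at day 8. Pecam1 had 4 against 0 at day 4, and Kdr had 3 against 0 at day 8. Ecscr, an endothelial gene outside these 5, was below 1 at day 2 with 1 read against 17. Of 6 epithelial markers, Krt8 was above 1 at days 2 and 4 (16 reads against 0, and 21 against 2). Krt14 was above 1 at day 2 (3 against 0). Trp63, an epithelial gene outside these 6, was below 1 at day 2 with 0 reads against 19. Ratios give no summed level of these markers, and their part in the cytokine ratios was not tested.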

How the data were processed

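Per the labels' protocols, RNA came from colonies freed from agarose, and libraries were made with a TruSeq RNA kit, version 2. The submitters' processing notes name edgeR 3.9 and mm10 with no role. The authors deposited 1 ratio (fold change) per gene for each day, with 998 genes a table. How reads were aligned, counted or scaled is not given in the sources used here. Deposited tables of mRNA hold no counts, so the depth of the mRNA libraries is unknown. The 2 miRNA tables were not used.

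Ratios, printed with 10 digits, were searched for the smallest pair of odd whole numbers (Python 3.11.15), each divided by 2 giving reads plus 0.5. The search was tested on simulated pairs. Intervals are exact conditional binomial 95% intervals (Clopper-Pearson) of the unscaled ratio of these smallest reads, computed with SciPy 1.17.1. They cover counting error only, since reads are not independent molecules. A count of 0 was set to 3 counts as a chosen floor where the other count exceeded 3. The "at least" folds given with it hold for that floor only, and the counting interval can start lower.

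All 37 symbols matched RefSeq genes (GRCm38.p6); of 2091 listed genes 1867 matched as given, 209 as synonyms and 15 not. Overlapping genes came from GENCODE M21. Each member is named, with full values if listed at 2 or more days or with at least 20 reads. From other lists up to 4 genes with at least 20 reads are named, and Spp1 beyond these. Tlr1, Itgam, Itgb6, Cdh5, Tek, Pecam1, Kdr, Spp1 and keratins were named after their values were seen. So were genes outside the lists: Nckap1l, Icos, Ecscr, Trp63, Nod1, Nod2 and Acta2. Members and lists were chosen with earlier results of these data known. Alternatives were read minimums of 10, 20 and 50, recentring, current symbols, a narrower list and the other direction.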

Additional observations from a re-analysis of the deposited data

Results flagged for a closer look

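Il13ra1 was below 1 at day 2, with a ratio of 0.130 in the authors' deposited table, and above 1 at day 8, with a ratio of 7, so the single comparisons of the 2 days point opposite ways. The smallest reads were 1 with TGFβ against 11 with vehicle at day 2 and 3 against 0 at day 8. The difference between the days was not tested, and the day 8 counting interval, from 0.413 upward, includes 1.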

How the results depend on the processing

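No paired analysis was possible because each condition and day had 1 library with no replicate number, and the rule used the ratios. Counts of genes above and below 1 depended on the read minimum. At 10 reads day 2 had 2 above and 7 below, day 4 had 8 above and 2 below, and day 8 had 8 above and 4 below; at 20 reads 2 and 5, 7 and 1, and 6 and 3; at 50 reads 2 and 4, 7 and 0, and 5 and 0 at days 2, 4 and 8. Read as vehicle over TGFβ they were 11 and 7, 3 and 13, and 5 and 13. With at least 20 reads, 5 genes recurred on 1 side and 0 stood on both sides. Current symbols added Gm14047, now Il1bos, above 1 at day 2; leaving out Il1rapl1 and Tnfaip6 took 1 from each side at day 8. Dividing each ratio by the midpoint of its table's edges (0.655 at day 2, 0.845 at days 4 and 8) can move no gene across 1. It moved 10 of the 52 ratios outside their counting interval. Without the 0.5 and with 0 set to 3 counts, 41 ratios had a value, within their interval by construction, and 11 had none, both reads being at most 3. Tnfrsf9 at day 4 was then 5, against 31 in the authors' deposited table, and Ccl22 at day 4 was 1.67, against 11. Low reads limit many genes: pairs of at most 5 reads against 0 have counting intervals that include 1.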
